A study of Mus musculus with 464 samples.

Results

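The Hoxa cluster genes were followed in single mouse cells that had been driven out of the embryonic stem cell state with retinoic acid. The 8 members were Hoxa2, Hoxa3, Hoxa4, Hoxa5, Hoxa6, Hoxa7, Hoxa9 and Hoxa10, chosen by name from the 21973 genes of the expression table and read in the order in which they lie on the chromosome. R1 embryonic stem cells, an established mouse line, had been kept in 15% serum replacement with 1000 U/ml LIF, a cytokine that holds stem cells undifferentiated. They formed embryoid bodies, free-floating aggregates, in hanging drops over 48 hours and then spent 4 days with retinoic acid, stated as 0.5 mM. All samples are single cells under this 1 label, with no untreated group and no named cultures, so the cells form 1 sample, no p-value can be given, and cells were compared by the marker genes they carried.

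Hox genes encode homeodomain transcription factors that give body regions their identity along the head-to-tail axis. In each cluster the order on the chromosome follows the order of use in the embryo: genes at the 3′ end switch on earlier and reach farther forward, into the hindbrain, and genes at the 5′ end are used later and farther back. Retinoic acid acts through nuclear receptors bound at response elements in and beside the 3′ part of the clusters. Polycomb proteins hold the genes silent in stem cells, and Cdx factors activate genes in the middle of the clusters in the trunk.

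Values were taken as TPM, since no unit was stated, and summed to 54.2 to 95.1% of the total that TPM assigns to a cell. TPM is a share of transcripts corrected for gene length, so levels of different genes can be compared within a cell. A gene was called detected at 1 TPM or more. Cells with under 2000 genes above 0 TPM or over 20% mitochondrial signal were set aside, and 55 pairs of the remaining columns were so alike that each pair was taken as 1 cell measured in both sets of columns and averaged. The distinct cells had a median of 6716 genes above 0 TPM. Sequencing depth is unknown from TPM, and this gene number is its stand-in. The binomial intervals given with shares are exact (Clopper-Pearson, 95%) and cover the counting of cells only.

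The cells were sorted into states by how many of 10 endoderm, 10 neural progenitor and 10 neuron marker genes they had. Endoderm-like cells (49, or 12.2% of all) carried 4 or more endoderm markers, such as Gata4, Sox17 and Foxa2, and under 5 of the 20 neural ones, and 56 cells (13.9%) carried both marker kinds. The rest had under 4 endoderm markers. Neuron-like cells (35.7% of all) had 6 or more neuron markers such as Tubb3 and Dcx, and progenitor-like cells (36.97%) had under 6 of those and at least 4 progenitor markers such as Sox2 and Pax6, and 5 cells had no state. These states are ranges cut from marker counts and not types: 59 cells lay within 1 marker of the cut between neuron-like and progenitor-like, and 11 within 1 marker of the endoderm cut. The median gene number was 5957 in endoderm-like cells, 7968 in cells with both marker kinds, 6922 in neuron-like cells and 6644 in progenitor-like cells. The summed level of 8 mesenchyme markers had a median of 0 TPM in every state. The summed level of 4 pluripotency genes had a median of 23.2 TPM in endoderm-like cells, 5.44 TPM in cells with both marker kinds and 0 TPM in neuron-like and progenitor-like cells.

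Across all cells the cluster was read in a broken gradient, high toward its 3′ end, with a dip at Hoxa6, a return at Hoxa7 and little beyond. Hoxa2, which patterns the second pharyngeal arch and the hindbrain, was detected in 84.1% of cells (80.2 to 87.6%), with a median of 78.6 TPM, a mean of 90.2 TPM and a highest value of 425.6 TPM. Hoxa3, a gene of the third pharyngeal arch that is needed for the thymus and parathyroid, was detected in 68.2% (63.4 to 72.8%), with a median of 7.90 TPM, a mean of 12.1 TPM and a highest value of 115.8 TPM. Its level was low for its place, since the genes on both sides of it were several-fold higher on the same scale.

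Hoxa4, a gene of the posterior hindbrain and neck, was detected in 78.9% of cells (74.6 to 82.8%), with a median of 39.2 TPM, a mean of 47.9 TPM and a highest value of 314.4 TPM. Hoxa5, which patterns the cervical spine and the lung and is active in the cervical spinal cord, was the most widely detected member, in 90.8% (87.6 to 93.5%), with a median of 104.4 TPM, a mean of 119.4 TPM and a highest value of 555 TPM. Hoxa5 was above Hoxa2 in 62.03% of cells and below it in 33.3%.

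Hoxa6, a gene of the neck-to-thorax region, was detected in 27.05% of cells (22.8 to 31.7%), with a median of 0 TPM, a mean of 5.03 TPM and a highest value of 136.9 TPM. Hoxa7, a gene of the thoracic region, was detected in 54.1% (49.1 to 59.04%), with a median of 5.06 TPM, a mean of 18.4 TPM and a highest value of 236.8 TPM. The member lying farther 5′ was thus the one found in more cells, and the intervals of these shares did not overlap. Hoxa9 and Hoxa10, genes of the trunk and limb and, in blood, of early progenitors, were found in few cells: Hoxa9 in 23, or 5.71% (3.65 to 8.44%), and Hoxa10 in 9, or 2.23% (1.03 to 4.197%). Hoxa11 and Hoxa13, which lie still farther 5′, were listed at 0 TPM in every cell.

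By mean level the order was Hoxa5, Hoxa2, Hoxa4, Hoxa7, Hoxa3, Hoxa6, Hoxa9 and Hoxa10. By detected share Hoxa3 came before Hoxa7. In single cells this pair had no clear order, since Hoxa7 was the higher of them in 43.2% of cells and Hoxa3 in 38.96%. The shares of Hoxa2 and Hoxa4 had overlapping intervals, as did those of Hoxa9 and Hoxa10, and all other neighbours in the order of shares were apart.

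**Figure D1:**
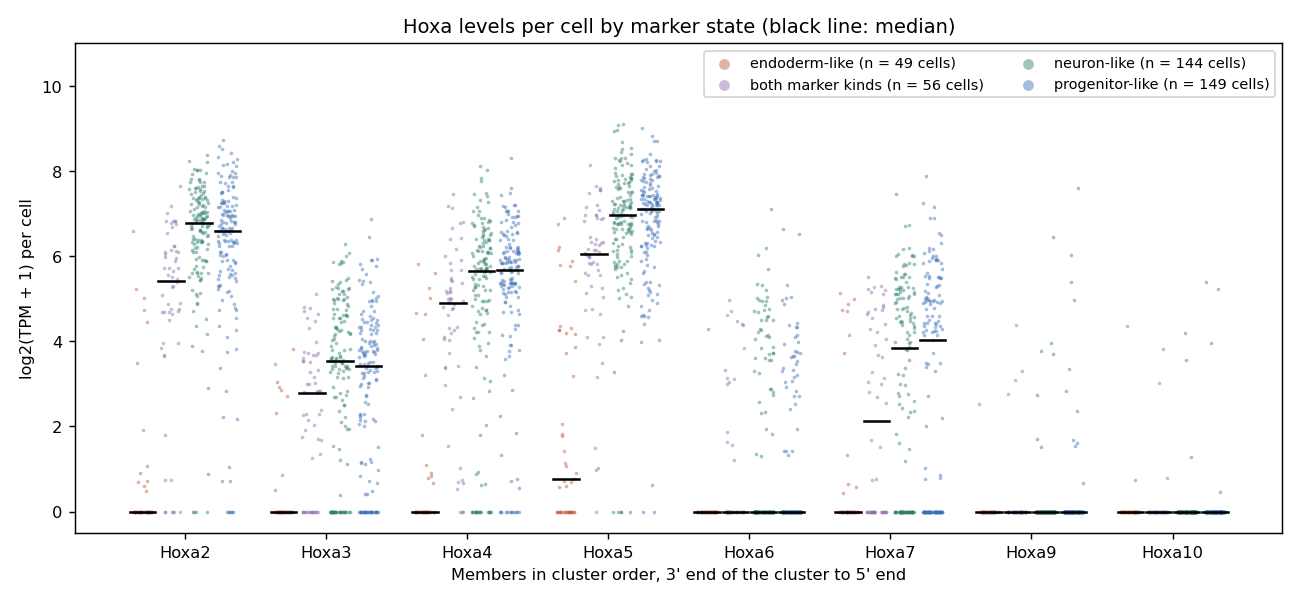
Level of each member in each cell, as log2(TPM + 1), with members in cluster order and cells by marker state (endoderm-like, both marker kinds, neuron-like, progenitor-like); black lines are medians. The medians of endoderm-like cells lie at 0 for all members but Hoxa5, and the medians of Hoxa6, Hoxa9 and Hoxa10 lie at 0 in every state.

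On build GRCm38.p6 the members run from chr6:52162417-52164831 (Hoxa2) to chr6:52231197-52240854 (Hoxa10), a span of 78438 bases. The RefSeq gene Hoxa3 is drawn over 44009 bases, chr6:52169059-52213067 and Hoxa4, Hoxa5 and Hoxa6 lie inside that span. The library chemistry does not mark strand, so reads from antisense transcripts in the cluster could not be told from those of the members, and reads in the shared span may be divided uncertainly among Hoxa3 and the genes within it.

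The start regions of 5 members are shown because the detected share changed sharply between them: Hoxa2 and Hoxa5 as the pair found in the most cells, Hoxa6 and Hoxa7 as the dip and the return, and Hoxa9 as the first member that was rarely found. Each is 300 bases from RefSeq on GRCm38.p6, from 250 bases before the annotated start to 50 bases after it, on the minus strand, read 5′ to 3′. Capitals mark matches, on either strand, to AGGTCA (the core site of retinoic acid receptors), TTTATG (a motif bound by Cdx factors) and TGATTNAT (a motif bound by Hox proteins with Pbx partners), which do not overlap here.
Hoxa2, chr6:52164782-52165081: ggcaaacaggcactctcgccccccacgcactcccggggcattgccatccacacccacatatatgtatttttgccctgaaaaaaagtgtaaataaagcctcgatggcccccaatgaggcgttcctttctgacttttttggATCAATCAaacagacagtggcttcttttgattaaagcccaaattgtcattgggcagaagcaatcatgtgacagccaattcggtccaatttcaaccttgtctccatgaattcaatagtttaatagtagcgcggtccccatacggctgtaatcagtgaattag
Hoxa5, chr6:52204538-52204837: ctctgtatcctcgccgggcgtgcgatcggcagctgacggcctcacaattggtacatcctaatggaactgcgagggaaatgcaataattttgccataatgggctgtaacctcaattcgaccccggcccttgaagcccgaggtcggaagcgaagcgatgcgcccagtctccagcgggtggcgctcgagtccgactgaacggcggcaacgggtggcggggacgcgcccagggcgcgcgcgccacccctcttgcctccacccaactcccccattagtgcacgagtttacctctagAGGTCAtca
Hoxa6, chr6:52208623-52208922: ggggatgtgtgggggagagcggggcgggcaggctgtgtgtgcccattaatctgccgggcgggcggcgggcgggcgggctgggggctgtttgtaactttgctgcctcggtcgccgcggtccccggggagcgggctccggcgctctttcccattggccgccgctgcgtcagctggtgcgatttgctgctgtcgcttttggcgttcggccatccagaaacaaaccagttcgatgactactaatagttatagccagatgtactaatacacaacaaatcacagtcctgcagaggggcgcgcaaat
Hoxa7, chr6:52218524-52218823: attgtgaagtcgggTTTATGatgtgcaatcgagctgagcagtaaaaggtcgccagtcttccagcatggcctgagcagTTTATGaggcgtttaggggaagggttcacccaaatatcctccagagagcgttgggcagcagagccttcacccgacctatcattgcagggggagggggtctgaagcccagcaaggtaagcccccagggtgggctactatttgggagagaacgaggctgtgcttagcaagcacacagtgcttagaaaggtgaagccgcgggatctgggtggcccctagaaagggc
Hoxa9, chr6:52227321-52227620: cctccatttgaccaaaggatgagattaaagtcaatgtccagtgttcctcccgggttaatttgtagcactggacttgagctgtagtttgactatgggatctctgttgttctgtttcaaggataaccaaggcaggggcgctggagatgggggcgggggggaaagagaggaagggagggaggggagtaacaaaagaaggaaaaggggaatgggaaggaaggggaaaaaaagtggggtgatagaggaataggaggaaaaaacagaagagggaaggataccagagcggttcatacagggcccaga
Hoxa2 held 1 match to the Hox-Pbx motif on the opposite strand, and 3.22% of all 32851 RefSeq promoters of this length held that motif. Hoxa5 held 1 AGGTCA near its end, a motif found in 16.3% of promoters. Hoxa7 held 2 copies of TTTATG, a motif found in 11.9% of promoters. Hoxa6 and Hoxa9 held none of these letters in this window. The direct repeats of that core site known as DR5 and DR2 were in none of the member promoters searched and in 0.00913% of all promoters each. The base composition also differed along the cluster: Hoxa5 and Hoxa6 had 61.7% and 62% G or C with 29 and 26 CpG, and Hoxa9 had 49.7% with 4 CpG. A match is a description of letters and not a measured site.

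Each cell was described by the set of members detected in it. Whether these sets differ from what the separate detected shares would give was not tested. The median cell had 4 of the 8 members, the highest had 7, and 21 cells had none, of which 20 were endoderm-like. Among the 47 different sets seen, 80 cells (19.9%) had Hoxa2, Hoxa3, Hoxa4, Hoxa5 and Hoxa7, and 64 cells (15.9%) had the same with Hoxa6. Another 62 cells (15.4%) stopped at Hoxa5, with all 4 members up to it. The member farthest 5′ that a cell had was Hoxa7 in 48.4% of cells and Hoxa5 in 31.3%. It was Hoxa6 in 27 cells, Hoxa9 in 21 and Hoxa10 in 9.

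The sets were often broken. Of the cells with more than 1 member detected, 54.7% skipped at least 1 member lying between detected ones. Hoxa6 was skipped in 62.9% of the cells with members detected on both sides of it. Hoxa3 was skipped in 21.7% of such cells, Hoxa4 in 12.1% and Hoxa5 in 3.27%.

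The 55 column pairs show how repeatable detection was. Of 440 combinations of member and pair, 19 (4.32%) were detected in 1 column and not in the other. That total includes combinations detected in neither column, among them 50 pairs for Hoxa9 and 51 for Hoxa10. The share among combinations with any detection is therefore higher. For Hoxa6, 17 pairs had it in both columns, 4 in 1 column and 34 in neither, and for Hoxa3 the counts were 33, 4 and 18. The highest value opposite a column without detection was 5.54 TPM, for Hoxa3. Among pairs with the gene in both columns, the median absolute log2 ratio was 0.15 for Hoxa2, 0.19 for Hoxa5, 0.31 for Hoxa7 and 0.39 for Hoxa3, and for Hoxa9 it was 1.03 over 5 pairs. What the column sets stand for is not stated, so it is not known whether this spread includes the capture of RNA from the cell.

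**Figure D2:**
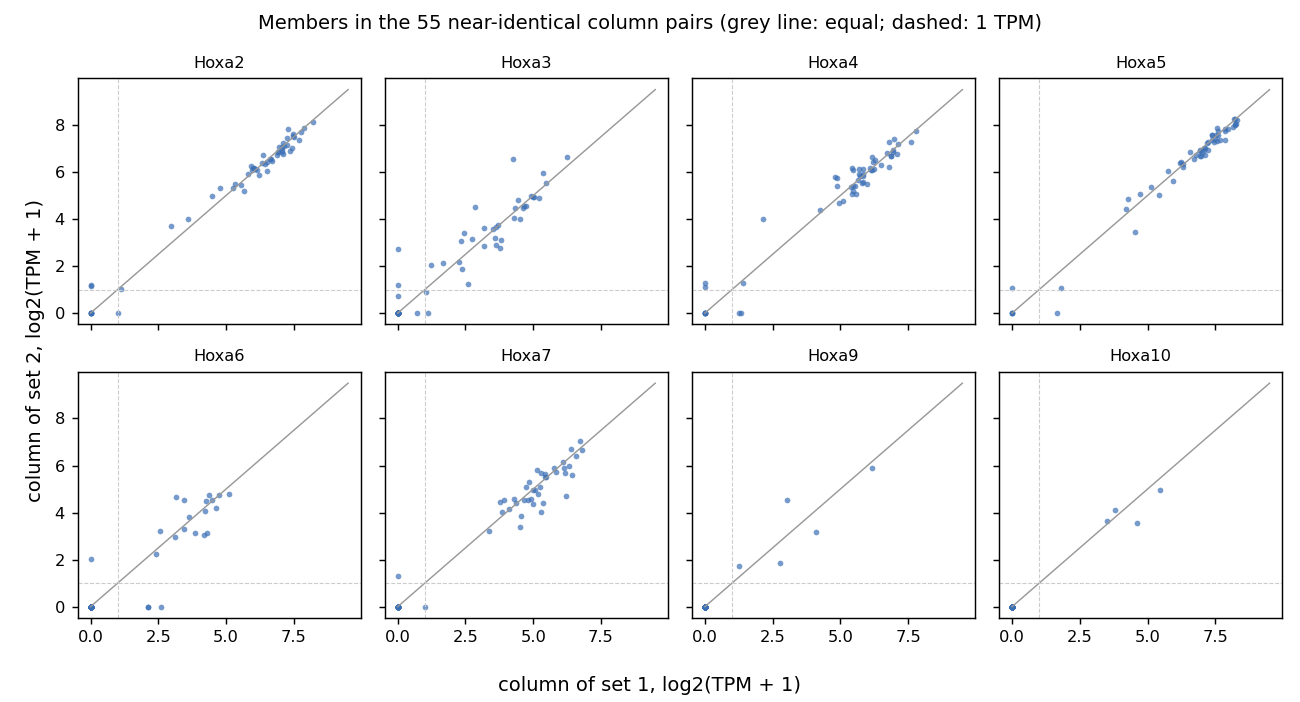
Level of each member in the 55 near-identical column pairs, set 1 on the horizontal axis and set 2 on the vertical axis, both as log2(TPM + 1); the grey line marks equal values and dashed lines mark 1 TPM. Points lie near the line for Hoxa2 and Hoxa5, and for Hoxa6 most points lie at 0 in both columns, with 4 pairs detected in 1 column alone.

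Detection also moved with gene number. In the neural cells, meaning neuron-like and progenitor-like cells together, Hoxa3 was detected in 96.97% of the 99 cells with the most genes and in 60.2% of the 98 with the fewest. Hoxa7 was detected in 78.8% of the cells with the most genes and in 37.8% of those with the fewest. Hoxa6 was detected in 47.5% of the cells with the most genes and in 21.4% of those with the fewest, and Hoxa5 in 100% of the cells with the most genes and in 91.8% of those with the fewest. For Hoxa7 and Hoxa3 mean levels varied less than detected shares. Hoxa7 averaged 23.8 TPM in cells with the most genes and 17.5 TPM in those with the fewest. Hoxa3 averaged 16.6 TPM in cells with the most genes and 15.97 TPM in those with the fewest. This did not hold for Hoxa5, with 156.6 TPM in cells with the most genes and 133.5 TPM in those with the fewest. The mean of Hoxa6 ran the other way, with 6.71 TPM in cells with the most genes and 8.10 TPM in those with the fewest. Hoxa6 was below Hoxa7 in both sets of cells, with intervals apart in the cells with the most genes (37.3 to 57.8% against 69.4 to 86.4%) and overlapping in those with the fewest (13.8 to 30.9% against 28.2 to 48.1%).

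Endoderm-like cells had little of the cluster's signal next to progenitor-like cells. Cells of 1 sample give no test, so a member was called lower or higher by size: mean TPM at least 2-fold apart, detection in at least 10 of the cells compared, and detected shares whose intervals do not overlap. By this rule 6 of the 7 members considered were lower in endoderm-like cells, where 16.6% of the 12022 genes considered were. The member with too few cells to be considered was Hoxa10. The median log2 fold over the 7 members was -3.56, and over all genes considered it was -0.27.

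Hoxa2 had a median of 0 TPM in endoderm-like cells, with a highest value of 95.2 TPM, against 95.3 TPM in progenitor-like cells, with a highest value of 425.6 TPM. The mean was 4.62 TPM in endoderm-like cells and 110.8 TPM in progenitor-like cells, 23.96-fold lower in the endoderm-like ones. It was detected in 16.3% (7.32 to 29.7%) of endoderm-like cells and 94.6% (89.7 to 97.7%) of progenitor-like cells. Hoxa3 averaged 1.10 TPM in endoderm-like cells and 14.01 TPM in progenitor-like cells, and Hoxa4 averaged 5.10 TPM in endoderm-like cells and 57.6 TPM in progenitor-like cells. Both were detected in at most 20.4% of endoderm-like cells, against at least 76.5% of progenitor-like cells.

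Hoxa5 had the widest trace of the 8 members in endoderm-like cells. It was detected in 23 of 49 endoderm-like cells, or 46.9% (32.5 to 61.7%), against 97.99% (94.2 to 99.6%) of progenitor-like cells, and averaged 15.01 TPM in endoderm-like cells and 144.9 TPM in progenitor-like cells. Its median of 0.70 TPM in endoderm-like cells was below the detection level, against 137.2 TPM in progenitor-like cells. Hoxa6 was found in 1 of 49 endoderm-like cells (2.04%, 0.0517 to 10.9%) and in 41 progenitor-like cells (27.5%, 20.5 to 35.4%). Hoxa7 averaged 3.59 TPM in endoderm-like cells and 23.7 TPM in progenitor-like cells, and was detected in 16.3% of endoderm-like cells and 57.05% of progenitor-like cells. Hoxa9 was found in 1 endoderm-like cell and 10 progenitor-like cells, and its intervals overlapped.

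Endoderm-like cells had a median of 1 member and a median summed level of 3.14 TPM over the 8 members, against 4 members and 338.2 TPM in progenitor-like cells. The highest sum in an endoderm-like cell was 173.2 TPM and the lowest in a progenitor-like cell was 36.3 TPM, so the states overlapped. Endoderm-like cells also had fewer genes above 0 TPM, as given above, and the part of this in the result was not tested. The folds lay below 1 for all 6 called members within each set of columns taken alone.

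**Figure D3:**
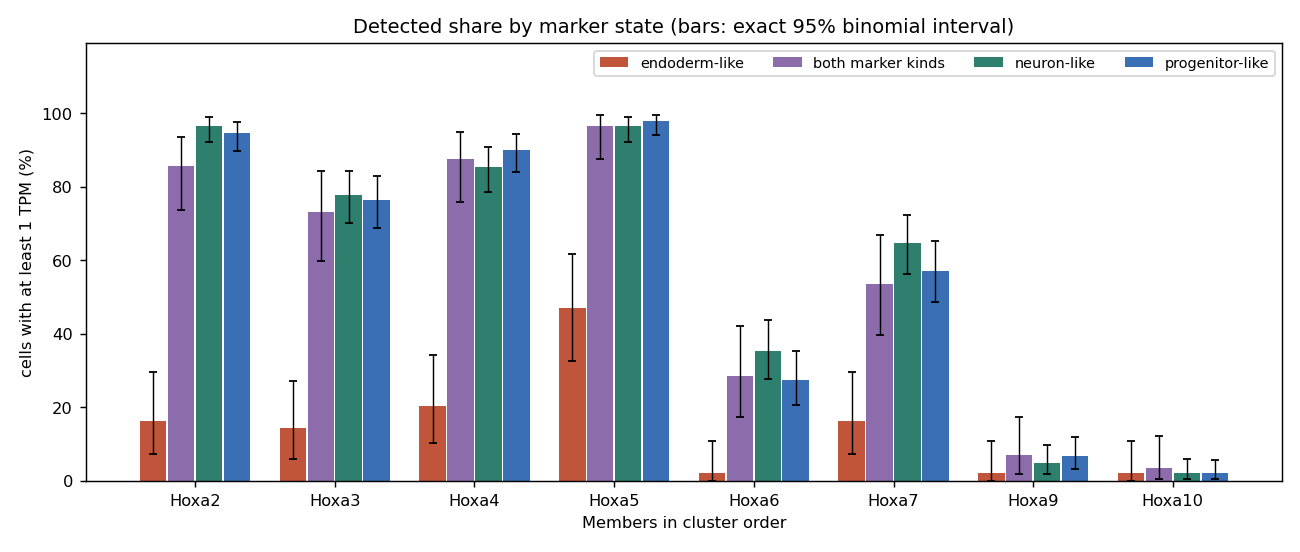
Share of cells with at least 1 TPM of each member, in cluster order, by marker state; error bars are exact 95% binomial intervals. From Hoxa2 to Hoxa7 the endoderm-like bars are below those of the other states, with Hoxa5 at 46.9%, and the bars of neuron-like and progenitor-like cells have overlapping intervals for every member.

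Genes that work with or before the Hox genes differed too, from lists assembled with earlier results of these data known. For each list the counts stand beside the 16.6% of all genes considered that were called lower in endoderm-like cells and the 11.2% called higher. Of 22 Hox genes outside the cluster, 17 were considered and 13 were lower in endoderm-like cells, among them Hoxb2, with 1.39 TPM in endoderm-like cells and 116.7 TPM in progenitor-like cells, and Hoxb8, detected in 0 of 49 endoderm-like cells, which allows a share of up to 6.12%, and in 81.9% of progenitor-like cells. Of 9 TALE genes, whose homeodomain proteins bind DNA beside Hox proteins, 7 were lower, including Meis2, with 1.07 TPM in endoderm-like cells and 39.6 TPM in progenitor-like cells.

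Of 16 genes that act before the Hox genes, 11 were considered, 5 were lower in endoderm-like cells and 1 was higher, a share near that of all genes called higher. The retinoic acid receptor gene Rarb averaged 27.9 TPM in endoderm-like cells and 71.4 TPM in progenitor-like cells. Crabp2, which carries retinoic acid to the nucleus, averaged 9.60 TPM in endoderm-like cells and 2098 TPM in progenitor-like cells. Cyp26a1, the enzyme that breaks retinoic acid down, was the gene called higher, with 1435 TPM in endoderm-like cells and 89.1 TPM in progenitor-like cells. Of 7 Polycomb genes, 3 were lower, among them Ezh2, the methyltransferase that marks silent Hox genes, with 15.6 TPM in endoderm-like cells and 124.3 TPM in progenitor-like cells.

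Each of the 7 members considered had a lower mean level in cells with both marker kinds than in progenitor-like cells. Their detected shares overlapped, and the level of Hoxa9 rests on few cells. The median log2 fold over these 7 members was -0.90, and over all genes considered it was -0.09. None of the 7 members considered was called, where 0.511% of genes were called lower and 11.7% higher. Hoxa2 averaged 50.3 TPM in cells with both marker kinds and 110.8 TPM in progenitor-like cells, a fold of 0.454, and was detected in 85.7% (73.8 to 93.6%) of cells with both marker kinds and 94.6% (89.7 to 97.7%) of progenitor-like cells. Hoxa5 averaged 77.7 TPM in cells with both marker kinds and 144.9 TPM in progenitor-like cells, and Hoxa7 averaged 10.7 TPM in cells with both marker kinds and 23.7 TPM in progenitor-like cells. Hoxa7 was detected in 53.6% of cells with both marker kinds and 57.05% of progenitor-like cells. The fold of Hoxa6 was 0.779 and lay above 1 under some alternatives, at 1.44 in the first set of columns alone. The summed level had a median of 161.6 TPM in cells with both marker kinds and 338.2 TPM in progenitor-like cells. These cells had the most genes of any state, and doublets, 2 cells in 1 capture site, were not called; their part in the result was not tested. Cyp26a1 averaged 782 TPM in cells with both marker kinds and 89.1 TPM in progenitor-like cells.

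Among all cells with 4 or more endoderm markers, Hoxa2, Hoxa4 and Hoxa5 were detected in larger shares from 7 neural markers on. In the 33 cells with 0 to 2 neural markers Hoxa2 was detected in 18.2%, Hoxa4 in 24.2% and Hoxa5 in 51.5%, and in the 24 cells with 3 to 6 neural markers Hoxa2 in 20.8%, Hoxa4 in 20.8% and Hoxa5 in 50%. In the 23 cells with 7 to 11 neural markers Hoxa2 and Hoxa4 were each detected in 91.3% and Hoxa5 in 100%, and in the 25 cells with 12 or more Hoxa2 in 96% and Hoxa4 and Hoxa5 in 100%. Hoxa7 was detected in 15.2%, 16.7%, 47.8% and 72% of these cells, in the same order, while Hoxa9 and Hoxa10 were found in at most 4 cells of any of these groups. The median gene number also climbed, with 5959, 6213, 7211 and 8536 genes, and its part was not tested.

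Between neuron-like and progenitor-like cells no member passed the rule. None of the 7 considered was called in either direction, where 7.14% of 12626 genes were higher in neuron-like cells and 1.4% lower, so the count is near the background and does not show that levels were equal. Hoxa2 averaged 114.9 TPM in neuron-like cells and 110.8 TPM in progenitor-like cells, a fold of 1.04, and Hoxa5 averaged 147.1 TPM in neuron-like cells and 144.9 TPM in progenitor-like cells, a fold of 1.02. Hoxa4 averaged 57.4 TPM in neuron-like cells and 57.6 TPM in progenitor-like cells, and Hoxa3 averaged 15.97 TPM in neuron-like cells and 14.01 TPM in progenitor-like cells. The median log2 fold over the 7 members was 0.02, and over all genes it was 0.04.

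The member farthest from equal among those found in over 10% of neural cells was Hoxa6, with 7.80 TPM in neuron-like cells and 4.60 TPM in progenitor-like cells and detected in 35.4% (27.6 to 43.8%) of neuron-like cells and 27.5% (20.5 to 35.4%) of progenitor-like cells, which overlap. With neuron-like cells limited to those with 9 or more neuron markers, an alternative chosen after the data were seen, its fold was 1.07. Along the neuron markers, over all cells with under 4 endoderm markers and so with the 5 that have no state, Hoxa6 was detected in 14.3% of the 56 cells with 0 to 2 markers, 33.7% of the 98 with 3 to 5, 35.7% of the 56 with 6 to 8 and 35.2% of the 88 with 9 or 10. Hoxa7 was detected in 41.1%, 65.3%, 58.9% and 68.2% of the same groups. The lowest group also had the fewest genes, with a median of 5930 against 6579 to 7174 in the others, and the part of this was not tested.

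Most neighbouring pairs of members were found together across the whole population. Within neural cells no neighbour pair had intervals apart, a count near that of all neighbouring genes. Over all cells, 5 of the 7 neighbour pairs had the second gene in a larger share of cells with the first than of cells without it, with intervals apart, where 21.4% of 8951 pairs of genes that neighbour each other on a chromosome did. The same held for 10 of the 21 pairs of members that are not neighbours. Hoxa3 was found in 77.6% of cells with Hoxa2 and in 18.8% of cells without it, and Hoxa5 in 97.8% of cells with Hoxa4 and in 64.7% of cells without it. In neural cells 0 of 7 neighbour pairs were apart, where 12.5% of neighbouring genes were, and 4 of the 21 other pairs were. The neighbour count is thus near the background and does not show that these members were found independently. Only 13 neural cells lacked Hoxa2, 8 lacked Hoxa5 and 17 had Hoxa9, so the intervals of those pairs are wide.

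In progenitor-like cells alone 1 pair was apart, Hoxa6 and Hoxa7, where 3.74% of neighbouring genes were. Hoxa7 was found in 32 of 41 progenitor-like cells with Hoxa6, or 78.05% (62.4 to 89.4%), and in 53 progenitor-like cells without it, or 49.1% of those (39.3 to 58.9%). Over all neural cells this pair overlapped, with Hoxa7 in 71.7% (61.4 to 80.6%) of cells with Hoxa6 against 55.7% (48.6 to 62.7%) of cells without it. The direction of this pair varied with gene number. In the 98 neural cells with the fewest genes, Hoxa7 was in 23.8% of cells with Hoxa6 and 41.6% without it, which overlap. In the 96 with a middle gene number the shares were 91.7% and 56.9%, with intervals apart. In the 99 with the most genes they were 83% and 75%, which overlap. The part of gene number in this pair was not tested. In levels, Spearman's rho across the neural cells had a median of 0.170 over neighbours and 0.0764 over the other member pairs, and was 0.423 for Hoxa4 and Hoxa5; the cells differ in gene number, and these are descriptions.

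**Figure D4:**
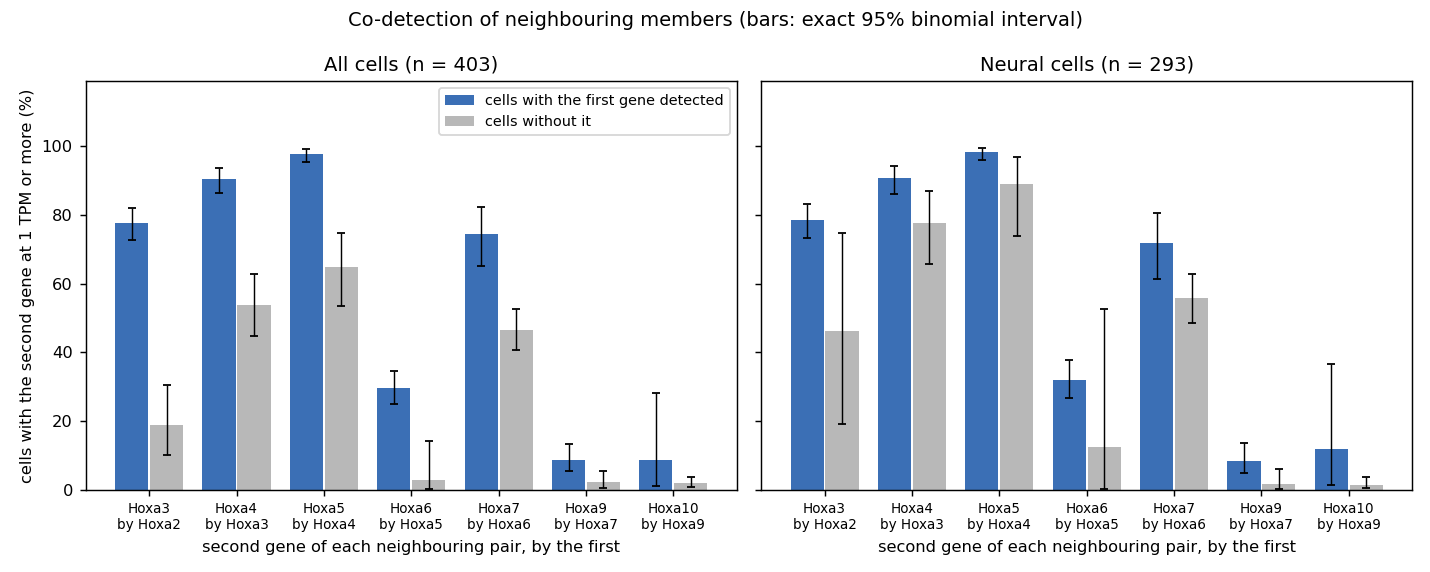
Share of cells with the second gene of each neighbouring pair among cells with the first gene (blue) and without it (grey), in all cells and in the neural cells; error bars are exact 95% binomial intervals. In all cells the intervals are apart for the 5 pairs from Hoxa2 with Hoxa3 to Hoxa6 with Hoxa7, and in neural cells they overlap for all 7 pairs.

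Hoxa9 and Hoxa10 were found in few cells of every state. Hoxa9 was found in 1 endoderm-like cell, 4 cells with both marker kinds, 7 neuron-like cells, 10 progenitor-like cells and 1 cell with no state, at 1.86 to 192.4 TPM with a median of 8.93 TPM. Of these 23 cells, 19 also had Hoxa7 and 21 had Hoxa5, and 7 had Hoxa6. Hoxa10 was found in 1, 2, 3, 3 and 0 cells of these states, at 1.43 to 40.95 TPM, and 2 cells had both genes.

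The 17 neural cells with Hoxa9 were set against the neural cells without it. None of 6 members considered was called, where 0.356% of 12626 genes were higher and 0.0238% lower. Of these 6, Hoxa7 was the member farthest from equal, with 49.4 TPM in cells with Hoxa9 and 20.3 TPM in cells without, and was detected in 88.2% (63.6 to 98.5%) of cells with Hoxa9 and 59.1% (53 to 64.9%) of cells without, which overlap narrowly. Hoxa10, in too few cells to be considered, was found in 2 of the 17 cells and 4 of the others, and averaged 3.27 TPM in cells with Hoxa9 and 0.242 TPM in cells without. Of 18 Hox genes considered outside the cluster, 2 were called higher. Hoxc9, of the same paralog group, was found in 4 of the 17 cells and in 10 of the others, and averaged 5.04 TPM in cells with Hoxa9 and 0.261 TPM in cells without. Hoxd8 averaged 10.9 TPM in cells with Hoxa9 and 2.49 TPM in cells without, and was found in 58.8% (32.9 to 81.6%) of cells with it and 16.3% (12.2 to 21.2%) of cells without. The median gene number was 7180 in cells with Hoxa9 and 6659 in cells without, and its part was not tested.

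The neural cells were also split by Hoxa7, which 60.8% of them had. None of 6 members considered was called, where 0.602% of genes were higher and 0.0158% lower. Hoxd8 was again called higher, with 4.09 TPM in cells with Hoxa7 and 1.25 TPM in cells without, found in 24.2% (18.1 to 31.1%) of cells with it and 10.4% (5.51 to 17.5%) of cells without. Cells with Hoxa7 had a median of 7101 genes and cells without it 5994. The split by Hoxa9 shares cells with this one, since 15 of the 17 cells with Hoxa9 are among the cells with Hoxa7.

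Set beside the Hoxb genes of the same paralog groups, which descend from the same ancestral gene, the Hoxa members were detected as often or more often at the 3′ end and less often from group 6 on. Hoxa2 was found in 84.1% (80.2 to 87.6%) of all cells and Hoxb2 in 86.8% (83.1 to 89.99%). Hoxa4 was found in 78.9% (74.6 to 82.8%) of cells with a mean of 47.9 TPM, and Hoxb4 in 68.2% (63.4 to 72.8%) with a mean of 6.43 TPM.

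From group 6 the order turned. Hoxa6 was found in 27.05% (22.8 to 31.7%) of cells at a mean of 5.03 TPM, and Hoxb6 in 85.4% (81.5 to 88.7%) at a mean of 87.1 TPM. Hoxa9 was found in 5.71% (3.65 to 8.44%) of cells at a mean of 1.38 TPM, and Hoxb9 in 68.5% (63.7 to 73%) at a mean of 35.3 TPM. Of the neural cells without Hoxa9, 77.5% had Hoxb9.

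Within neural cells, paralogs were found together beyond the intervals for 4 of the 16 pairs examined, where 6.86% of the pairs of a member with a gene outside the Hox family were. Hoxb7 was found in 89.9% (84.5 to 93.9%) of cells with Hoxa7 and in 68.7% (59.4 to 77.02%) of cells without it, where 13.3% of other genes were found more often with Hoxa7. Hoxd3 was found in 81.4% of cells with Hoxa3 and in 59.7% of cells without it, where 13.1% of other genes were found more often with Hoxa3. The other 2 were Hoxb2 with Hoxa2, where 9.73% of other genes were found more often with the member, and Hoxc9 with Hoxa9, where 1.15% were. For the members with no such pair the share of other genes was 10.3% for Hoxa4, 4.4% for Hoxa5, 2.69% for Hoxa6 and 0.283% for Hoxa10. In progenitor-like cells alone Hoxb2 with Hoxa2 and Hoxc9 with Hoxa9 were apart as well, and the intervals of Hoxa7 with Hoxb7 and of Hoxa3 with Hoxd3 overlapped. Gene number differed between cells with and without Hoxa7, and detection of Hoxa3 also moved with gene number, both as given above. The part of gene number in these pairs was not tested. Hoxb6 was found in 97.8% of cells with Hoxa6 and in 96.02% of cells without it.

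**Figure D5:**
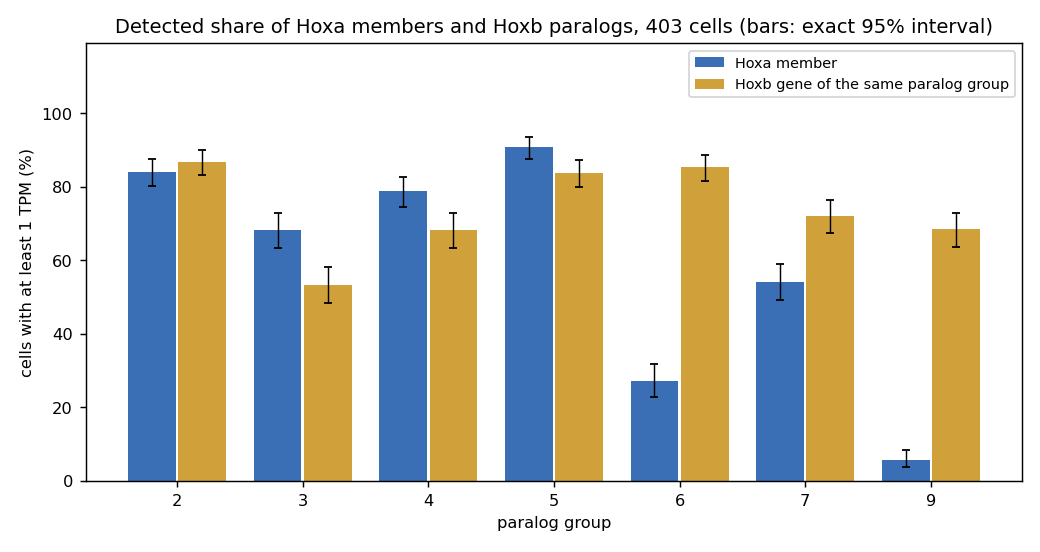
Share of all cells with at least 1 TPM of each Hoxa member (blue) and of the Hoxb gene of the same paralog group (yellow); error bars are exact 95% binomial intervals. Bars are alike at group 2, the Hoxa bar is higher at groups 3 to 5, and the Hoxb bar is higher at groups 6, 7 and 9, where Hoxa9 is at 5.71% and Hoxb9 at 68.5%.

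No gene followed a member closely from cell to cell. Over the progenitor-like cells and 9101 genes found in at least 20% of them, the highest Spearman's rho with any member was 0.406, between Hoxa3 and Fbxw9. Another Hox gene was among the 3 most alike for Hoxa5 (Hoxb2, 0.393), Hoxa2 (Hoxb2, 0.360) and Hoxa7 (Hoxc6, 0.312). Correlations this weak in sparse data are no finding.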

How the data were processed

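The study measured RNA in single cells captured on a Fluidigm C1 instrument, with SMART-Seq V4 cDNA and Nextera XT libraries, per the labels' protocols. STAR and RSEM, without versions, and build mm10 are named per the submitters' processing notes; the gene annotation was not given in the sources used here. As for the values, the authors deposited 1 table of 21973 genes by 464 columns with no stated unit, taken as TPM, since RSEM gives that unit and the column sums reached 54.2 to 95.1% of the total that TPM assigns to a cell. TPM keeps no depth, so cells could not be thinned and count models were not used. Its header runs on into the first gene's row and was split there. No column name matches 1 sample title, and all samples share 1 group. No columns were left unused.

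Columns come in 2 sets by name, with 228 and 236 columns. Filters left 458, with 2059 to 10256 genes above 0. Pairs correlating above 0.93, computed without Hox genes, were averaged: 55 pairs, 1 column in each set, at 0.946 to 0.990, with 0.917 the highest value elsewhere. This gave 403 distinct cells: 49 endoderm-like, 56 with both marker kinds, 144 neuron-like, 149 progenitor-like and 5 others, so 293 neural cells; of these 178 had Hoxa7 and 17 had Hoxa9. Doublets were not called, since that needs counts. All 8 members were named by rule, with the 3 most alike genes each. The members, marker lists, gene lists and rules were chosen with earlier results of these data known. The call rule was tested on simulated data. Alternatives covered the repeat columns, each column set, detection level, cell filter, marker cuts and rescaling. Gene positions and promoters came from RefSeq (GRCm38.p6), where 20780 names matched; promoters were searched for 7 of the 8 members, all but Hoxa4. Python 3.11.15, numpy 2.4.6, scipy 1.17.1, pandas 2.3.3 and matplotlib 3.10.9 were used.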

Additional observations from a re-analysis of the deposited data

How the results depend on the processing

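No paired analysis was possible because all samples carry 1 group and no result comes from a test; for the same reason no replicate could be left out, and each set of columns was instead taken alone. With any value above 0 counted as detection, 1 member, Hoxa2, was called lower in cells with both marker kinds than in progenitor-like cells, at a fold of 0.430, where the main count was 0. With detection limited to each cell's 4000 highest genes, 3 neighbour pairs were apart over all cells in place of 5, the count lower in endoderm-like cells was 5 in place of 6 because Hoxa6 was found in too few cells, and all detected shares were lower, with Hoxa3 at 19.1% and Hoxa7 at 29.8%, so that Hoxa7 then came before Hoxa3. The endoderm-like count was otherwise 6, and the neuron-like count was 0 in all 13 alternatives. The median number of members per cell ran from 3 to 5 and the neighbour count from 3 to 6. Rescaling each cell shifted the median log2 fold of all genes between endoderm-like and progenitor-like cells by 0.25, and the median of the members was then -3.29. Folds of Hoxa9 and Hoxa10 rest on few cells and crossed 1 between alternatives: for neuron-like over progenitor-like cells Hoxa9 ran from 0.347 to 3.07. The fold of Hoxa6 in cells with both marker kinds over progenitor-like cells also crossed 1, with 0.779 as reported, 1.44 in column set 1 alone, 1.32 with any value above 0, 1.30 with 1 marker fewer for every state and 1.02 with all kept columns. With an unknown depth, a gene at 0 TPM in a cell is not shown to be silent there.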

Other observations

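Listed genes beyond the 8 members that stood higher in neuron-like than in progenitor-like cells by the rule of size, where 7.14% of all genes considered did, included Evx1, Hoxb1, Hoxc6 and Pbx3. Evx1, a homeobox gene beyond the 5′ end of the cluster that marks ventral interneurons, was found in 19 neuron-like cells, or 13.2% (8.13 to 19.8%), and reached 1 TPM in 0% of progenitor-like cells, with a highest value of 0.38 TPM there. By the limit of 3 cells, that count of 0 allows a share of up to 2.01%. It reached 1 TPM in no cell of the other states, so its 19 cells were all neuron-like. Hoxb1 averaged 7.32 TPM in neuron-like cells and 1.34 TPM in progenitor-like cells, and Hoxc6, a gene of brachial motor neurons, averaged 30.99 TPM in neuron-like cells and 12.02 TPM in progenitor-like cells. Pbx3, a partner of Hox proteins, averaged 61.9 TPM in neuron-like cells and 18.1 TPM in progenitor-like cells.

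Of the 6 columns set aside by the cell filter, 4 had Hoxa5, 3 had Hoxa4, 2 each had Hoxa2, Hoxa3 and Hoxa7, and 1 each had Hoxa6 and Hoxa9.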
